A study of Mus musculus with 24 samples.

Results

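The comparison described here set 2 H3K27ac peak lists from embryonic mouse limb buds against each other: the control list of embryonic day E11.5 and the list deposited under the name Sox9null E11.5. The sample to which the second list is attached is titled Sox9cKO E12.5, so its deposited name and its sample title disagree on genotype label and day. It is called the Sox9null-named list below. The list named Sox9cKO E12.5 is in turn attached to the sample titled Sox9null E11.5, and its values stand beside the results as the alternative reading of the labels. The control list held 36045 peaks and the Sox9null-named list 36937. Joined where they overlapped by at least 1 bp, they gave 44117 regions. Of the 49367 regions of all 4 H3K27ac lists (both days, control and Sox9-deficient), 41637 (84.3%) carried a peak in one of the 2 lists. Each list came from 1 library, so there was no replicate, no test was made and no p-value is given. A difference below describes 2 libraries, and genotype, stage and library cannot be told apart.

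Sox9 encodes an HMG-box transcription factor that is required for cartilage formation and binds enhancers of cartilage matrix genes together with the related factors Sox5 and Sox6. In the limb bud, mesenchymal cells that express it gather into condensations and then become chondrocytes, which secrete type II, IX and XI collagens and proteoglycans. Acetylation of lysine 27 on histone H3 (H3K27ac) marks active promoters and enhancers. The series groups samples as control or Sox9-deficient limb buds at E11.5 and E12.5, with the deficient samples labelled Sox9null or Sox9cKO. Chromatin was precipitated with an H3K27ac antibody (ab4729, Abcam). Neither the labels nor the list names state the alleles, the driver of any Cre or the number of embryos in a library. A whole limb bud holds cartilage precursors beside muscle, vessel, nerve, blood and ectoderm cells, and in such bulk tissue fewer cells of a type and less acetylation per cell cannot be told apart.

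Peaks were compared by their rank. Each peak had a score from the authors' peak caller, whose highest value was 3233.06 in both lists. The top 36045 peaks of each list were ranked by score and each peak was given a rank percentile, from 100 for the best to values near 0 for the weakest, with 0 for no peak. Differences are the Sox9null-named list minus control in percentile points, and a difference of 25 points or more is called past the cut. Many of the strongest peaks were tied: 4.78% of control peaks and 7.94% of Sox9null-named peaks had a score of 3100 or more. A gene at a score of 3100 in both lists therefore has 97.4 in control and 95.7 in the Sox9null-named list, a difference of -1.71 that comes from the number of tied peaks alone. At such genes the rank cannot show a difference in strength.

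Promoters of 4 cartilage matrix genes are printed to show the gene-end sequence where the 2 lists differed. They were chosen after their values were seen, as those of the cartilage matrix list whose RefSeq promoter window differed by 20 points or more. The window reached from 250 bases before the transcription start to 50 bases after it. The 250 bases before the start are printed 5′ to 3′ in the direction of the gene, as RefSeq gives them on GRCm38.p6 (mm10). Fmod lies at chr1:134037004-134037253 on the plus strand and Col9a2 at chr4:121039316-121039565 on the plus strand. Mia lies at chr7:27181150-27181399 on the minus strand and Chad at chr11:94564797-94565046 on the plus strand. Capitals mark the TATA box TATAAA and the GC box GGGCGG on either strand. The HMG-box core motifs ACAATG and ACAAAG were searched on both strands too and occur in none of the 4. No matches overlapped.
Fmod: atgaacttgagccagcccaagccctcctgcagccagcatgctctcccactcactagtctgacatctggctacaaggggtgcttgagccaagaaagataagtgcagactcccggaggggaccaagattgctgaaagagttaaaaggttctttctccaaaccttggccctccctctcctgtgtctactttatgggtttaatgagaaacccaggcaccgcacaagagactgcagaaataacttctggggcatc
Col9a2: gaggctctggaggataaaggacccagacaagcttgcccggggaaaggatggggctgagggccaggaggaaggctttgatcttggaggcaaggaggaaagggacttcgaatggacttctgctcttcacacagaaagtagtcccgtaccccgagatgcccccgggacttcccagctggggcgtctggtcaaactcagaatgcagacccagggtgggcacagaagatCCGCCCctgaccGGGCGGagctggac
Mia: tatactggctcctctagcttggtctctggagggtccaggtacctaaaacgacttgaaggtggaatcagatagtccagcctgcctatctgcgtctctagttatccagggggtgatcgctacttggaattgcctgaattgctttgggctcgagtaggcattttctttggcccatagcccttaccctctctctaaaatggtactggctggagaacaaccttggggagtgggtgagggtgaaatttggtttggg
Chad: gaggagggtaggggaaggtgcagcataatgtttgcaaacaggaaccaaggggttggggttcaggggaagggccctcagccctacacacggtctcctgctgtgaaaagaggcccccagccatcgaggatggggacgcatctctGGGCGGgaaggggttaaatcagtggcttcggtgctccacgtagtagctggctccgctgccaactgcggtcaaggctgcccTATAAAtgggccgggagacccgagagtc

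The Chad promoter held a peak of rank percentile 43.8 in control and none in the Sox9null-named list. Chad encodes chondroadherin, a leucine-rich repeat protein of cartilage matrix. The Mia promoter, of a small protein secreted by chondrocytes, went from 30.5 to 0, and the Col9a2 promoter, of a type IX collagen chain, from 24.5 to 0. Both genes kept a stronger peak elsewhere: over the whole gene and 1 kb on either side, Mia had 79.0 against 73.1 and Col9a2 70.4 against 58.8. The Fmod promoter differed the other way, from 23.2 to 47.9. Fmod encodes fibromodulin, a collagen-binding proteoglycan of tendon and cartilage. In the list whose sample is titled Sox9null E11.5, Chad and Mia were also at 0, whereas Col9a2 stood at 75.2 and Fmod at 62.7. Of 21263 promoters of protein-coding genes, 22.8% held an HMG-box core, 11.6% a TATA box and 42.6% a GC box. Of the 15 cartilage matrix promoters that were marked in either list, 6.67% held an HMG-box core, 13.3% a TATA box and 73.3% a GC box. Among all promoters marked in either list, the shares were 15.9%, 5.45% and 62.3%. A match is a run of letters only.

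The strongest peaks were common to both lists, and most peaks without a partner were distal and ranked below the top 20000. Of the control peaks, 78.0% (Wilson 95% interval 77.6 to 78.4, counting error only) were overlapped by a Sox9null-named peak, and 73.0% (72.6 to 73.5) the other way. None of the top 10000 control peaks was absent from the whole Sox9null-named list, and none of the top 10000 Sox9null-named peaks was absent from the control list. At 20000 top peaks, 421 control peaks and 506 Sox9null-named peaks had no partner in the whole other list. Between tops of equal size, 92.0% of control peaks were shared at 5000, 93.7% at 10000, 89.6% at 20000 and 77.6% at 36045. At 1000 and 2000 the shares were 64.9% and 75.6%. Those 2 tops lie inside or near the tied scores, where the wider peak was taken first.

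**Figure D1:**
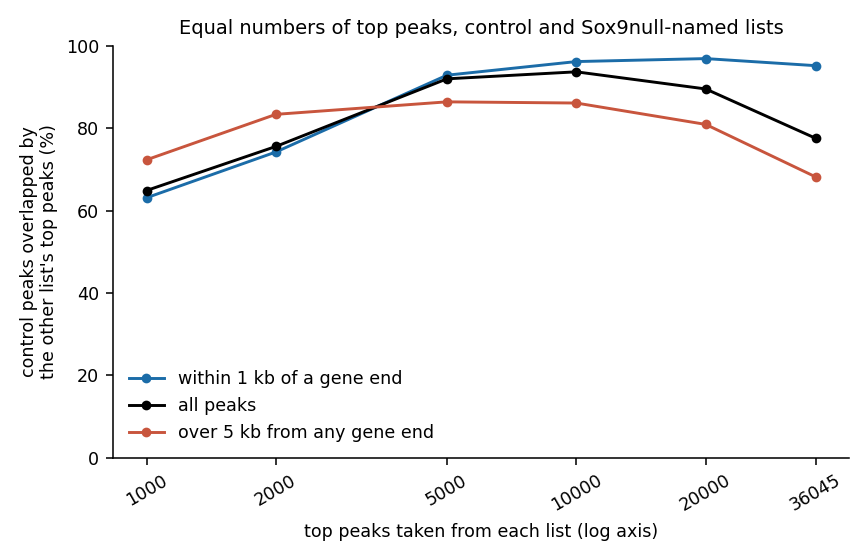
Share of control peaks overlapped by Sox9null-named peaks when equal numbers of top peaks are taken from each list (x axis, log scale), for peaks within 1 kb of a gene end, all peaks and peaks over 5 kb from any gene end. At 36045 peaks the gene-end share is 95.2% and the distal share 68.2%.

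Peaks near genes and far from genes parted below the top ranks. A gene-end peak lies within 1 kb of either end of a protein-coding gene, and a distal peak over 5 kb from any. At 36045 peaks, 95.2% of the control gene-end peaks were shared and 68.2% of the distal peaks. Gene-end peaks made up 80.0% of the top 5000 control peaks and 81.0% of the top 5000 Sox9null-named peaks. They made up 70.2% in the list named Sox9cKO E12.5 and 70.1% in the control E12.5 list. On this measure the Sox9null-named list stood next to the E11.5 control, and the list whose title gives E11.5 stood next to the E12.5 control. The overlap with the E11.5 control was 67.8% of control peaks for the list named Sox9cKO E12.5 and 72.0% for the E12.5 control. Of their own peaks, 78.7% of the former and 72.3% of the latter were overlapped by the E11.5 control, beside 73.0% of the Sox9null-named peaks. The lists differ in length, with 28419 and 32821 peaks in those 2, and a shorter list can cover fewer control peaks. These lists were all set against the same control. Set against the E12.5 control in its place, 87.8% of the peaks of the list named Sox9cKO E12.5 and 70.4% of the Sox9null-named peaks were overlapped.

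Across the genome, the Sox9null-named list had slightly more regions past the cut upward than downward. The equal lists merged into 43415 regions, of which 3382 (7.79%) were lower and 4110 (9.47%) higher in the Sox9null-named list. Of 12345 gene-end regions, 323 (2.62%) were lower and 410 (3.32%) higher. Of 27077 distal regions, 2696 (9.96%) were lower and 3257 (12.0%) higher. Distal regions inside genes and between genes had like shares, with 10.1% and 9.85% lower and with 12.0% and 12.1% higher. Peaks were also wider in the Sox9null-named list: over 23934 regions with 1 peak in each list, the median width was 1464 bp in control and 1662 bp in the Sox9null-named list.

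Most regions past the cut had a peak in 1 list alone: 785 of the 3382 lower and 930 of the 4110 higher regions had a peak in both. Over all regions, a peak in both lists was seen in 26076 (60.1%). The 8080 regions of control alone had a median percentile of 17.6, and 171 of them reached 50. The 9259 regions of the Sox9null-named list alone had a median of 18.2, and 197 reached 50. Among the 12929 distal regions with a peak in both lists, 605 were lower and 731 higher, with a median difference of 0.08 points.

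**Figure D2:**
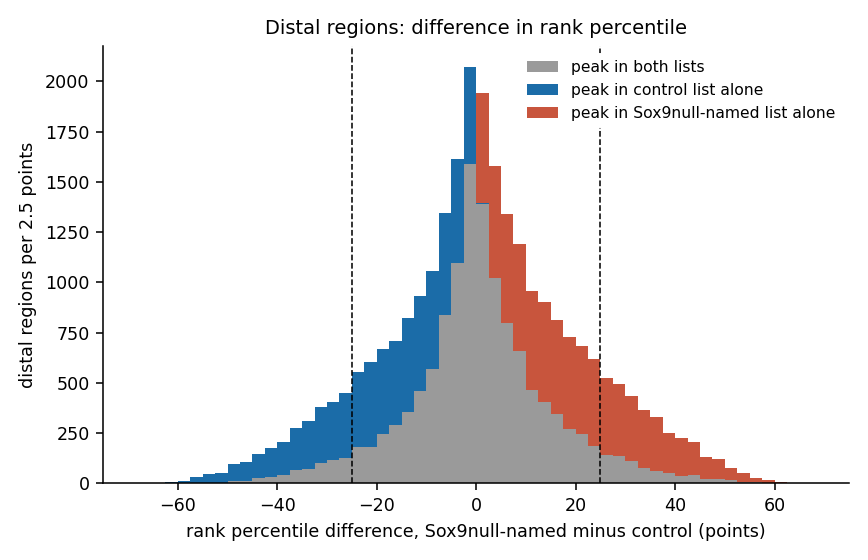
Distribution of the rank percentile difference over 27077 distal regions (x axis, percentile points; y axis, regions per 2.5 points), stacked by whether the region has a peak in both lists, control alone or the Sox9null-named list alone. Dashed lines mark 25 points; most of the 2696 lower and 3257 higher regions are those with a peak in 1 list.

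With the list whose sample is titled Sox9null E11.5 in its place, the balance was another. Of 20235 distal regions, 1869 (9.24%) were lower and 4015 (19.8%) higher than control E11.5. Of 13768 genes, 1255 (9.12%) were lower and 257 (1.87%) higher. The control E12.5 list, set against the same control, gave 2711 (10.7%) lower and 5375 (21.2%) higher of 25350 distal regions, and 1219 (8.66%) lower and 296 (2.10%) higher of 14079 genes. Each pair was ranked over the length of its shorter list, 28419 and 32821 peaks, so a weak control peak has a lower percentile there.

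Sox9 itself was marked in both lists, but by different stretches. The gene lies at chr11:112782210-112787757. In control, a peak with a score of 3100 spanned 112779858 to 112785685, and a second, with a score of 397.31, spanned 112785874 to 112787845. Together they covered 96.6% of the gene. In the Sox9null-named list a peak with a score of 3100 ended at 112783851 and the next, with a score of 1246.66, began at 112786385. A stretch of 2533 bp inside the gene had no peak, and 54.3% of the gene was covered. The list named Sox9cKO E12.5 had a gap of 2453 bp and covered 55.8%, and control E12.5 had 1 peak covering 81.3%. Both Sox9-deficient lists thus had a gap of like place and size, and neither control list did.

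The gene desert around Sox9 held 22 distal regions with Sox9 as the nearest gene. None of these was lower past the cut and 3 were higher, beside 9.96% and 12.0% of all distal regions. With the alternative list 2 of 19 were lower and 5 higher. The largest difference was at chr11:112924545-112926077, 137 kb from the gene, which had no control peak and a percentile of 61.3 in the Sox9null-named list. It was among the 5 highest-scored Sox9null-named peaks with no control peak. The alternative list had 38.9 there. The other 2 lay 219 kb from the gene, at 11.8 in control against 45.2, and 19.7 kb from it, at 0 against 29.2. Among the regions assigned to Sox9, the largest downward differences did not pass the cut. They were 60.7 against 36.2 (63.9 kb from the gene) and 45.8 against 22.1 (72.8 kb). Desert regions nearer to Slc39a11 were assigned to that gene. Of those, chr11:113032887-113033561 (29.9 against 0) and chr11:113183606-113184995 (58.0 against 0) were lower past the cut, and chr11:113147459-113148563 (0 against 39.6) was higher.

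Of the cartilage matrix genes, 4 were lower past the cut in the Sox9null-named list and none higher. The list held 30 genes (collagens of cartilage, proteoglycans, matrilins and enzymes of their sulphation). A gene takes the percentile of the best peak touching its body or the 1 kb on either side. A peak was found for 24 genes, for 23 in control and for 20 in the Sox9null-named list. Among the 24 the difference was below 0 in 17 and above in 7, beside 50.6% below 0 over all genes. The sign count was 22 of 25 for limb mesenchyme genes and 19 of 24 for chondrogenic regulators, but the tie value counts as below 0. The median of both those lists is the tie value, so ties largely set their counts. Among the 17 cartilage matrix genes below 0, only Col2a1 was at the tie value, so the counts are not alike. Over all 14451 genes with a peak in either list, 270 (1.87%) were lower past the cut and 363 (2.51%) higher. The median difference was -4.92 points for the cartilage matrix genes and -0.09 over all genes.

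The lower genes were weakly or moderately marked in control. Col9a3, a chain of type IX collagen, stood at 44.1 in control and 5.31 in the Sox9null-named list. Chad went from 43.8 to 0, and Matn4, a matrilin, from 49.7 to 23.3. Col11a2, a chain of type XI collagen, went from 27.1 to 0. With 20 kb added on each side of the gene, where other peaks enter, the differences were -0.37 points for Chad, 0.69 for Col9a3 and -1.71 for Col11a2, and Matn4 kept -26.5. Ucma, a Gla protein of cartilage, went from 24.4 to 0 and missed the cut. Smaller differences were seen at Col9a2 (70.4 against 58.8), Snorc (29.5 against 18.7), Col9a1 (85.4 against 75.03) and Cnmd (9.69 against 0), the gene of chondromodulin.

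The main cartilage collagen gene differed by the tie value alone. Col2a1, which encodes type II collagen, had 97.4 in control and 95.7 in the Sox9null-named list. Hapln1, the link protein of aggrecan, had 76.8 and 75.3, and Col11a1 had 80.4 and 83.3. Fmod (23.2 against 47.9) and Comp (0 against 18.8) were higher without passing the cut. Acan, Matn1, Prg4, Epyc, Susd5 and Scrg1 had no peak in either list. In the alternative list, Chad, Col11a2, Matn4, Ucma, Snorc and Cnmd had no peak and Col9a3 stood at 17.4. Control in that pair had 28.7 at Chad, 36.3 at Matn4 and 29.1 at Col9a3. It had 7.52 at Col11a2, 4.17 at Ucma, 10.5 at Snorc and none at Cnmd, too little for a fall past the cut. The median of that pair over 23 cartilage matrix genes was -4.17 points, beside -3.36 over all genes. Past the cut, Chad and Matn4 were lower and Fmod and Epyc higher.

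**Figure D3:**
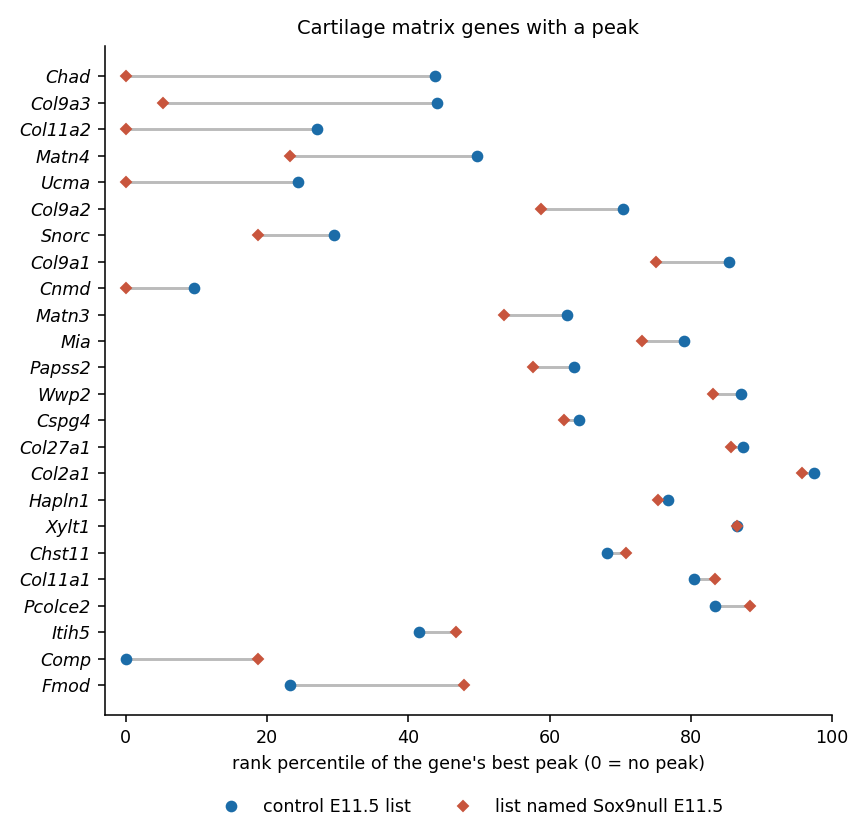
Rank percentile of the best peak of each of the 24 cartilage matrix genes with a peak, in the control E11.5 list (circles) and the list named Sox9null E11.5 (diamonds), ordered by the difference. Chad, Col9a3, Col11a2 and Matn4 are past 25 points lower, and Fmod and Comp are the largest differences upward.

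Distal regions nearest cartilage matrix genes were more often lower than higher in this pair of lists. There were 72, near 13 genes: 16 lower and 5 higher past the cut, with a median difference of -7.78 points. That is 22.2% lower and 6.94% higher, beside 9.96% and 12.0% of all distal regions. Of the other gene lists described below, skeletal muscle had 19.1% lower and 14.9% higher. Erythroid and macrophage genes had 18.5% and 11.1%, and BMP and joint genes 6.45% and 12.3%. A lower share above that of all distal regions was thus not particular to cartilage matrix genes. Of the 72, 25 had a peak in both lists, 28 in control alone and 19 in the Sox9null-named list alone. Wwp2 gave 5 of the 16 lower regions, Cspg4 3, Chst11 3 and Col27a1 2. Some of these nearly touch each other, within Wwp2 and within Cspg4, and were counted apart. The 16 are therefore not 16 separate stretches. All distal regions were counted in the same way. The 5 higher regions were 1 each near Chst11, Col27a1, Col9a1, Matn1 and Xylt1, named after their values were seen. With the alternative list, 6 of 52 such regions were lower and 10 higher, with a median of 2.92, beside 9.24% lower, 19.8% higher and a median of 5.90 over all distal regions of that pair. The cartilage matrix regions thus had more lower than higher regions with the Sox9null-named list and shares near those of all distal regions with the alternative.

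Wwp2, a ubiquitin ligase gene that hosts the cartilage microRNA miR-140, had 17 distal regions, 5 lower past the cut and none higher. At chr8:107547248-107548985 control had 60.3 and the Sox9null-named list no peak, and the adjoining region at chr8:107543855-107547239 had 77.3 against 51.2. Others stood at 47.6 against 0 (chr8:107478055-107479231) and 56.6 against 22.2 (chr8:107521365-107522738). The latter adjoins a lower region at chr8:107522740-107523369, with 25.5 against 0. The alternative list had 77.5 over both of the first 2 regions, where control had 49.7 and 71.3 in that pair. Cspg4, which encodes a membrane chondroitin sulphate proteoglycan, had 4 distal regions, all inside the gene. Control had 45.0, 49.7, 38.3 and 11.8 there, and the Sox9null-named list 0, 0, 3.3 and 0. The alternative list had no peak at any of the 4, where control had 30.2, 36.2, 21.8 and 0 in that pair.

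Genes of chondrogenic regulators stayed within the cut. Of 29 such genes, 24 had a peak in both lists, and none was past the cut either way. The median difference, -1.71 points, is the tie value. Many of these genes were tied in both lists, so staying within the cut says little about them. The largest differences were Pax9 (64.0 against 54.4) and Sox6 (97.4 against 90.6) downward and Runx2 (89.2 against 95.7), the osteoblast factor, and Foxa3 (77.0 against 83.2) upward. Sox4, Sox11 and Sox12 were at the tie value in both lists. Of the 338 distal regions nearest these genes, 45 (13.3%) were lower and 37 (10.9%) higher, close to the 9.96% and 12.0% of all distal regions. With the alternative list, 2 of 24 genes were lower (Foxc2 and Pax9) and none higher, and 14 of 313 distal regions were lower and 89 higher, beside 9.24% and 19.8% of all distal regions of that pair.

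Distal regions were uneven between loci. The 329 genes with at least 15 distal regions were ordered by the number of higher minus lower regions, after values had been seen. In 107 there were more lower than higher regions, in 166 more higher and in 56 equal numbers. Sox5, the partner of Sox9 in cartilage enhancers, came first, with 9 of 22 lower and none higher. Runx1 came next with 7 of 24 lower and none higher, and then Slc4a3, an anion exchanger gene, with 10 of 49 lower and 4 higher. Slc39a11, a zinc transporter gene beside the Sox9 desert, had 9 of 31 lower and 3 higher, and Wwp2 had 5 of 17. Msi2 (7 of 33 lower, 3 higher), Sdk2 (5 of 21 lower, 1 higher) and Sox6 (5 of 21 lower, 1 higher) followed. Olfr1324, 1700018B08Rik, Psmg1 and Mreg were level with them in net count. With the alternative list Runx1 had 3 of 19 lower and 1 higher, Slc4a3 3 of 40 and 9, Slc39a11 6 of 21 and none, Wwp2 1 of 13 and 1, and Sox6 1 of 23 and 1. At the other end Igsf3, an immunoglobulin superfamily gene, had none lower and 7 of 15 higher. Level with it in net count were Rad51b (7 of 70 lower, 14 higher), Gm30733 (3 of 36 lower, 10 higher) and Bcas3 (4 of 35 lower, 11 higher). Over all distal regions 9.96% were lower and 12.0% higher, and with the alternative list 9.24% and 19.8%.

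The 9 lower Sox5 regions all lay inside the gene. The largest differences were at chr6:144312589-144313792 (51.4 in control, no peak in the Sox9null-named list) and chr6:144055748-144056993 (50.7, no peak). The first of them adjoins a region, chr6:144311574-144312560, with a Sox9null-named peak at 24.9 and no control peak, so its difference rests on where the peaks ended. At chr6:144250488-144251665 control had 40.4 and at chr6:144039337-144040433 it had 38.9, again with no peak in the other list. At chr6:144480479-144481835 the values were 47.3 and 9.28, and at chr6:144166004-144167065 47.3 and 17.8. The strongest Sox5 region, chr6:144207798-144211831, differed little, with 92.5 and 86.4. In the alternative list the first of these regions had 32.6, the second 0.33 and the third no peak, where control had 38.4, 37.5 and 24.4 in that pair. With that list 1 of 20 Sox5 regions was lower and 1 higher.

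Runx1, a Runt factor of blood and of early chondrocytes, had its largest differences at chr16:92654025-92655258 (55.2 against no peak) and chr16:92620360-92621980 (50.01 against no peak). Its promoter was marked in both lists, at 77.1 and 71.2. Sox6 had 75.6 against 31.6 at chr7:115623636-115626978, where the alternative list had 78.0. Slc39a11 had 59.9 and 58.0 in control at chr11:113291503-113293347 and chr11:113183606-113184995, with no peak in the Sox9null-named or the alternative list.

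**Figure D4:**
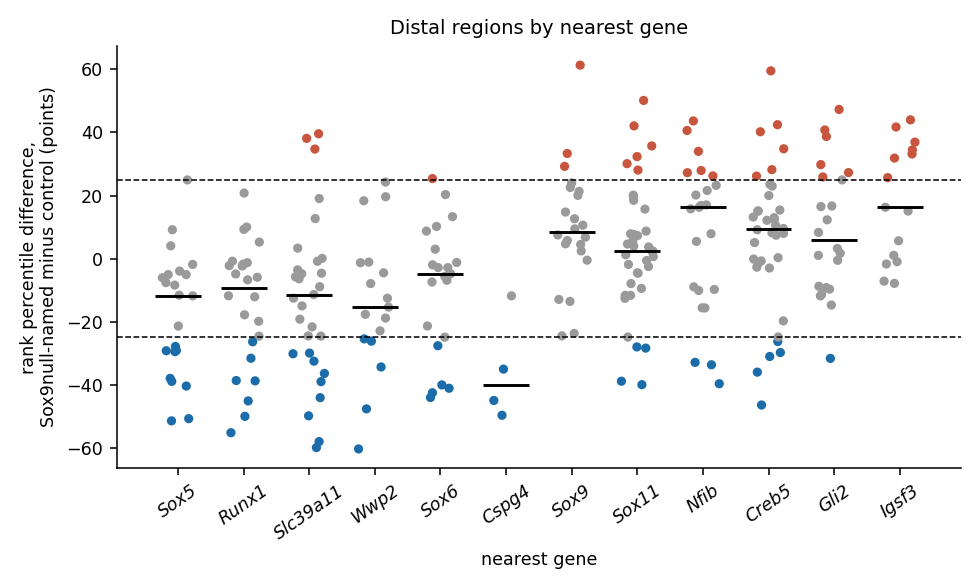
Rank percentile difference (y axis, points, Sox9null-named minus control) of each distal region, by nearest gene (x axis); bars are medians and dashed lines mark 25 points. Sox5, Runx1, Wwp2 and Cspg4 have lower and no higher regions past the lines, Sox9 and Igsf3 higher and no lower ones, and the others both.

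Markers of other cells of the limb bud differed in both directions. Limb mesenchyme genes (25, such as Prrx1) and fore and hind limb identity genes (6, such as Tbx5 and Tbx4) had a peak in both lists and none past the cut. Most of these genes were at the tie value, where the rank cannot show a difference in strength. With the alternative list 1 of the 6 identity genes and 1 of the 25 limb mesenchyme genes were lower past the cut. The identity gene was Tbx5, with 96.7 in control and no peak in the alternative list, which had 98.6 at Tbx4 and Pitx1. The limb content of the libraries was not tested. Of 21 skeletal muscle genes, 17 had a peak, 14 in control and 17 in the Sox9null-named list, and the summed percentile was 866 and 918. Of the 17, 2 were lower and 4 higher past the cut, beside 1.87% and 2.51% of all genes. Lbx1 and Pax7, factors of muscle precursors, stood at 12.2 against 58.0 and at 0 against 39.4. By merged region the Lbx1 difference was 20.8 points, inside the cut. Myf5 (0 against 26.5) and Des (0 against 26.5) were the other higher genes, named after their values were seen. Myog, the factor of muscle differentiation, stood at 28.0 against 0.37 and Myh3, an embryonic myosin, at 26.3 against 0.83. With 20 kb added the Myog difference was -19.4 points. The alternative list had no peak at Lbx1, Pax7, Myf5, Des and Myh3 and 26.7 at Myog. Control in that pair had no peak at Lbx1, Pax7, Myf5 and Des either, and 6.55 at Myh3 and 8.65 at Myog.

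Erythroid and macrophage genes had a peak in 9 of 20 in control and 10 in the Sox9null-named list, with sums of 429 and 519. The difference was above 0 in 8 of them and below in 2, Runx1 (77.1 against 71.2) and Fcer1g (67.6 against 63.0). Their 54 distal regions leaned the other way, with 10 (18.5%) lower and 6 (11.1%) higher, beside 9.96% and 12.0% of all distal regions. Runx1 gave 7 of those 10. Epor, the erythropoietin receptor, had 28.4 against 58.2 and Spi1 had 14.7 against 43.2. Surface ectoderm genes had a peak in 14 and 16 of 20, with sums of 719 and 794. Of 18 with a peak in either list, 10 were above 0 and 8 below. The epithelial genes Esrp1 (0 against 40.4) and Krt18 (0 against 35.7) were higher past the cut. Epcam, also epithelial, was lower without passing it (57.4 against 45.5), though its promoter went from 57.4 to 0. With 20 kb added, Esrp1, Krt18, Spi1 and Epor no longer differed past the cut (-0.70, -3.07, -2.16 and 0.43 points). Fgf8, the ridge growth factor, had 23.5 against 0. Endothelial genes had a peak in 12 and 15 of 20, with sums of 690 and 718. Of 15 with a peak in either list, 8 were above 0 and 7 below. Tek, an angiopoietin receptor, had 10.1 against 36.2, the only one past the cut. The largest falls were at Sox18 (41.6 against 25.7) and Flt1 (13.3 against 4.10). Nerve and glia genes had a peak in 7 and 6 of 15, with sums of 412 and 385, and S100b, a glial and cartilage calcium-binding protein, had 26.5 against 0. Among limb signalling genes Shh had no control peak and 38.1 in the Sox9null-named list. The alternative list had no peak at Shh, Epor, Spi1, Esrp1, Krt18, Fgf8 and S100b, and 46.2 at Tek. Control in that pair had no peak at Shh, Spi1, Esrp1, Krt18 and Tek. It had 9.17 at Epor, 2.96 at Fgf8 and 6.74 at S100b, so none of these genes could fall past the cut. Epcam and Sox18 also had no peak in the alternative list, where control had 45.9 and 25.9 in that pair. Defining markers without a peak in either list were Myod1, Actc1, Chrng and Ttn of muscle, Krt14 and Ovol1 of ectoderm, and Cdh5, Kdr, Sox17, Emcn and Lyve1 of endothelium. Gata1, Alas2, Csf1r and Adgre1 of blood and macrophages and Sox10 and Foxd3 of nerve and glia were also without one. The part of cell composition in the cartilage values was not tested.

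Genes of other limb lineages were mostly within the cut. Of 20 condensation and adhesion genes, 19 had a peak and none was past the cut. The largest difference was at Tnc, a matrix glycoprotein, with 40.5 against 26.3. Of 28 BMP and joint genes, 26 had a peak and none was past the cut. Noggin (Nog) had 64.1 against 57.8 and Wnt4 had 0 against 24.8. Of 17 growth plate and bone genes, 9 had a peak, and Ihh, Col10a1, Mmp13 and Ibsp, which mark mature chondrocytes and bone, had none. Fgfr3 had 71.7 against 61.3 and Alpl 36.2 against 27.3. Of 16 tendon and connective tissue genes, 15 had a peak. Col14a1 had 23.97 against 0 and Egr2 had 23.9 against 40.8. All 20 housekeeping genes had a peak in both lists with none past the cut. Of 20 genes of other tissues, 5 had a peak, and Scgb1a1, a lung gene, had 39.7 against 0.

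**Figure D5:**
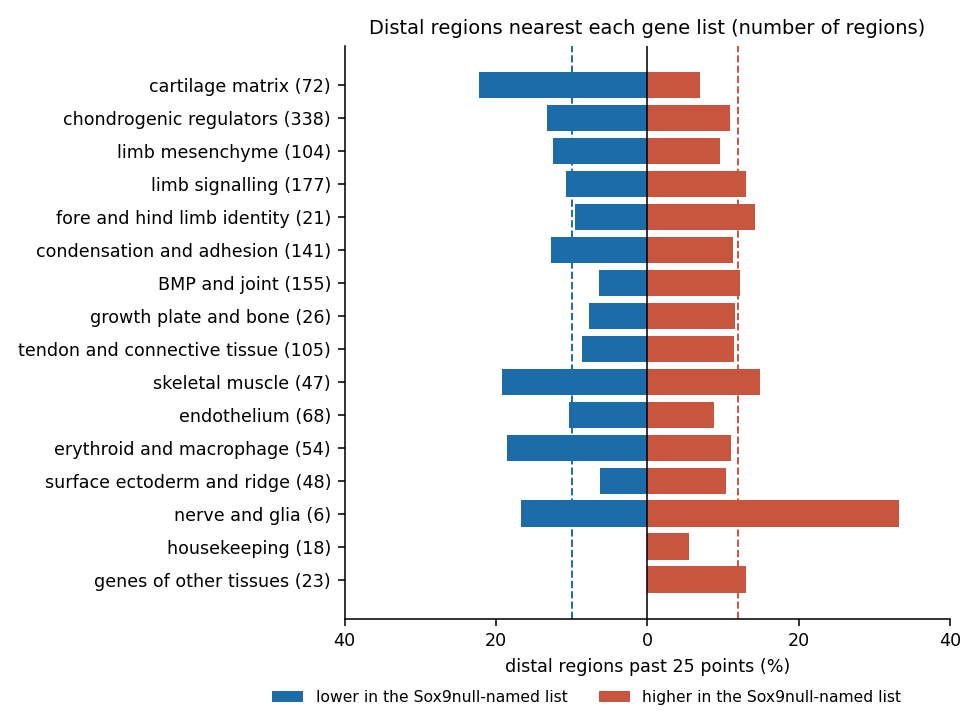
Share of distal regions past 25 points lower (left) or higher (right) in the Sox9null-named list, by the gene list of the nearest gene, with the number of regions in brackets; dashed lines are the shares over all distal regions (9.96% and 12.0%). The cartilage matrix bar reaches 22.2% on the lower side and 6.94% on the higher side. Skeletal muscle reaches 19.1% and 14.9%, and erythroid and macrophage 18.5% and 11.1%.

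Many of the largest gene differences were set by where a peak ended. Of the 10 genes most lower and the 10 most higher with a percentile of at least 50 in 1 list, 5 and 10 were not past the cut when the whole merged region was ranked. Those lower were Tnp2, Saa3, Tmem274, Gm5373 and Fn3k, and those higher Dph2, S100a3, Abhd15, Rbbp8nl, Mvp, Epp13, Aloxe3, 4931406B18Rik, Plcxd1 and Fam166a. Tnp2 (94.8 against 0) lay in a region of 94.8 and 95.7. Fam166a (0 against 91.2) lay in a region of 91.9 and 91.2. Of all 633 genes past the cut, 593 were past it the same way by merged region and 40 were not.

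By merged region, the most lower genes were Fbp1, a gluconeogenic enzyme (65.8 against 0), Bfsp2, a lens filament gene (59.8 against 0), and Pcgf5, a Polycomb component (57.6 against 0, at its promoter). Otx1 (56.8) and Trf, the transferrin gene (55.8), likewise had no Sox9null-named peak. With 20 kb added the Trf difference was -2.46 points. The most higher were Sfn (0 against 59.97), Cd14, a macrophage receptor (0 against 57.4), and F11r, a tight junction protein (0 against 57.4, at its promoter). Sfn encodes an epithelial 14-3-3 protein. In the alternative list Fbp1 had 48.4, Bfsp2 18.8, Pcgf5 none, Sfn none and F11r 41.9.

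Among single distal regions, the largest differences were of like size both ways. By the rule of the 10 largest each way, the lower regions lay near Plekhm3, Derl3, Gab1, Onecut1, Epb41l1, Col4a1, Kirrel3, Osr2, Rab11fip4 and Wwp2. The higher lay near Lnpk, Lrrc58, Creb5, Ccn6, Irx2, Mctp2, Slc6a6, Sox9, Bach2 and Ezr. Lower regions included chr1:64846823-64848740 inside Plekhm3 (65.7 against 0) and chr15:35275374-35277266 near Osr2, a limb and joint factor (60.5 against 0). A region at chr8:11164610-11166767 near Col4a1, a basement membrane collagen gene, had 61.4 against 0. Higher regions included chr17:6744067-6746735 inside Ezr (0 against 65.2), chr4:32218733-32221018 near Bach2 (6.73 against 68.9) and chr6:53470470-53472633 inside Creb5, a factor of articular cartilage (0 against 59.5). The alternative list had no peak at the Plekhm3 region, 10.02 at Osr2 and 42.2 at Col4a1. It had 72.0 at Ezr, 49.8 at Bach2 and 83.2 at Creb5. The highest-scored peaks with no partner in the other list lay near Fbp1, Plekhm3, Derl3, Gab1 and Onecut1 in control and near Ezr, Naa10, Ntng1, Sox9 and Ypel4 in the Sox9null-named list. Their percentiles were between 62.7 and 65.8 in control and between 61.0 and 65.2 in the Sox9null-named list.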

How the data were processed

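H3K27ac peaks were deposited as lists with a position and a score for each peak. The peak names in the files carry the name MACS, and each list belongs to 1 sample. Per the submitters' processing notes, the build was mm10 and the tools named are CASAVA 1.8 and deepTools. No label or header states the aligner, the MACS version, the use of input, the definition of the score or the read depth, so the depth is unknown. The other 20 samples of the series were not used.

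The members and the gene lists were chosen with earlier results of these data known. Both lists were cut to 36045 peaks, ranked by deposited score (ties at their mean rank), and merged at 1 bp overlap. Genes came from RefSeq (GRCm38.p6, 21887 genes, of which 17492 had a promoter in the sequence table), with regions assigned to the nearest gene. Named genes are Sox9, any cartilage matrix or regulator gene, the 2 largest differences each way in the other lists, the 10 largest each way over genes and distal regions with a percentile of at least 50, and the 5 highest-scored peaks of each list without a partner. Names by merged region and loci by count were added after values were seen. Alternatives changed the overlap, cut, ranking, number of peaks, gene window, distal distance, chromosomes and list. Scripts (Python 3.11.15, pandas 2.3.3, scipy 1.17.1) were tested on simulated data.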

Additional observations from a re-analysis of the deposited data

How the results depend on the processing

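With the list whose sample is titled Sox9null E11.5, 67.8% of control peaks were overlapped and 78.7% the other way. Gene-end regions were 1255 lower and 227 higher, and 1255 genes were lower. Of the distal regions nearest cartilage matrix genes 6 were lower and 10 higher. The cartilage matrix median stayed below 0 under each alternative run, between -4.92 and -1.71, but -1.71 is the tie value. With the list whose sample is titled Sox9null E11.5 it was -4.17, beside -3.36 over all genes of that pair. A median below 0 thus does not by itself set these genes apart. The regulators' median became 1.85, that of condensation and adhesion genes 1.85 and that of limb mesenchyme genes 0.088. The 1.85 is the tie value of that pair, where a tied gene has 96.7 in control and 98.6 in the alternative list. It comes from the number of tied peaks alone. The difference became -9.17 for Epor, 18.1 for Myog and 11.4 for Scgb1a1. The cause was not tested.

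The cut and the number of peaks set the counts by construction. At a cut of 15 points, 6595 regions were lower and 7667 higher, with 652 and 761 at gene ends and 5224 and 6107 distal, and 584 genes were lower and 694 higher. The distal regions nearest cartilage matrix genes were then 29 lower and 12 higher. At 40 points, 849 regions were lower and 1114 higher, with 79 and 138 at gene ends and 676 and 864 distal, 66 and 111 genes, and 5 and 2 cartilage matrix distal regions. With the top 20000 peaks, 349 regions were lower and 474 higher, with 72 and 118 at gene ends and 247 and 329 distal, 78 and 138 genes, and 4 and 0 cartilage matrix distal regions. With distal set at 20 kb, 9 of those were lower. In the promoter window 166 genes were lower.

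Peaks overlapping by at least 50% of both made up 65.9% of control and 64.3% of Sox9null-named peaks. By 1 bp overlap, the shares among the higher-scored 50% of peaks were 91.7% and 88.0%. In equal numbers of top peaks they were 77.6% and 74.3%, also by 1 bp. The regulators' median was 0 with scores of 3100 and above tied at their best rank, -0.41 by peak width, -1.71 on autosomes alone and -3.09 with 20000 peaks. The -1.71 and the -3.09 are the tie values of those settings.

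With 20 kb added to the gene body, which takes in neighbouring peaks, Chad differed by -0.37 points and Col9a3 by 0.69. The sign also changed for Aloxe3 (-0.24), Epp13 (-2.26), Esrp1 (-0.70), Fam166a (-0.74), Fn3k (2.01), Krt18 (-3.07), Mvp (-1.71), Plcxd1 (-4.55), S100b (8.70), Spi1 (-2.16) and Tnp2 (0.95). By merged regions it changed for Aloxe3 (-0.24), Epp13 (-2.26), Fam166a (-0.74), Fn3k (5.08), Plcxd1 (-4.55), Rbbp8nl (-4.57) and Tnp2 (0.95). No library could be left out, since each side has 1. No paired analysis was possible because each group has 1 library.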
